A study of Mus musculus with 16 samples.

Results

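The clustered protocadherins are cell-surface proteins of the cadherin superfamily that are encoded in 3 neighbouring gene groups, alpha, beta and gamma, on mouse chromosome 18. Members were the Ensembl gene models on chromosome 18 whose symbol began with Pcdha, Pcdhb, Pcdhga, Pcdhgb, Pcdhgc or Pcdhac followed by a digit or the letter c. By that rule 59 of the 50578 genes in the deposited annotation were members, and they carried 56 different symbols. All 16 libraries of the series came from mouse macrophages grown out of bone marrow over 7 days in 50 ng per ml of M-CSF, a macrophage growth factor. RNA-seq covered 3 untreated and 3 lipopolysaccharide (LPS) samples of wild-type C57BL/6 mice, and ribosome profiling covered 2 untreated and 2 LPS samples of the same strain. Every ribosome profiling title also carries the label CHX, so untreated there means without LPS. RiboTag, which recovers RNA bound to tagged ribosomes, was done on 2 untreated samples, and on 2 samples each after 6 h and 24 h with LPS. Its mice carried LysM-Cre, a Cre driver of myeloid cells, together with the RiboTag allele. The deposited file was a gene annotation with no value per library, so no member is described as expressed or as changed by LPS, and depth and the macrophage markers of the samples were not analysed here. The description below concerns the gene models on build mm10. No sequence is printed for them.

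In an alpha or gamma protocadherin, a large variable exon encodes the extracellular cadherin repeats, the membrane-spanning segment and the start of the cytoplasmic tail. It has a promoter of its own and is spliced to a set of small constant exons at the end of the cluster, which encode the rest of the tail. A beta protocadherin is encoded by its large exon alone. The family is best known from neurons, where each cell uses a limited choice of these promoters and the resulting proteins take part in self-recognition of axons and dendrites. The C-type members, Pcdhac and Pcdhgc, lie nearest the constant exons and are known to be used more broadly among neurons than the others.

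The alpha cluster held 15 members under 13 symbols, the beta cluster 22 members and the gamma cluster 22 members under 21 symbols. All 59 lay on the plus strand, from chr18:36930184 at the 5′ end of Pcdha1 to chr18:37841873 at the shared 3′ end of the gamma genes, a stretch of 911690 bases. All but 1 of the alpha models ended by chr18:37187661, 77276 bases before Pcdhb1, and Pcdhb22 ended 137313 bases before Pcdhga1. All 59 carried a coding sequence (CDS) with a start and a stop codon. Ensembl called 58 of them protein-coding and Pcdhgb8 a polymorphic pseudogene, a class for genes that are coding in some individuals or strains and not in others. The RefSeq gene table lists Pcdhgb8 as a transcribed pseudogene. Its Ensembl model held a reading frame of 931 codons, equal to the gamma median.

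**Figure D1:**
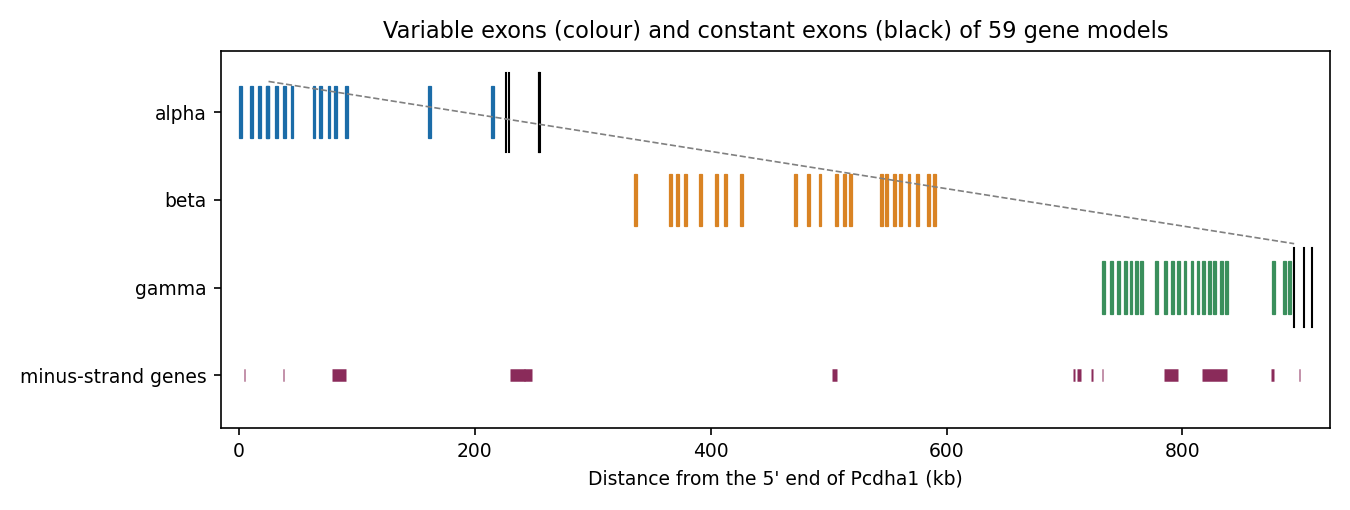
Position of the variable exons (coloured blocks, from the start codon to the splice donor, or to the end of the coding exon in beta) and of the main constant exons (black lines) of the 59 models. The x axis is the distance in kb from the 5′ end of Pcdha1, and the bottom track shows genes on the minus strand. The dashed line is the intron of 869870 bases of 1 alpha model, which ends at the gamma constant exons.

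The longest coding exon had at least 2000 coding bases in 59 of 59 members (100%, Wilson 95% interval 93.9 to 100%). The interval treats members as independent draws, although they are related genes and all that met the rule. Over all 22159 Ensembl protein-coding genes, 700 had a coding exon of at least 2000 bases, which is 3.16%. Members made up 58 of those 700 genes, or 8.29%, since Pcdhgb8 is outside the protein-coding class. In all 59 members the longest coding exon was also the first one. Its length varied little, from 2316 bases in Pcdhb6 to 2562 bases in Pcdhac2, with a median of 2397 bases. The median over the protein-coding genes was 334 bases.

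The whole reading frame was longest in alpha, with a median of 947 codons and a range of 919 to 1006. The 919 belonged to a Pcdha4 model that used the gamma constant exons, and the other 14 alpha members ranged from 934 to 1006. Gamma members had a median of 931 codons and a range of 912 (Pcdhgb4) to 944 (Pcdhgc5). Beta members had a median of 796 codons and a range of 772 (Pcdhb6) to 829 (Pcdhb7). The beta range lay wholly below the alpha and gamma ranges, whereas the large exon by itself had medians of 2385 bases in alpha, 2388 in beta and 2421 in gamma. Of the alpha C-type members, Pcdhac2 had 1006 codons, the most of any member, and Pcdhac1 had 964, fewer than the 979 of Pcdha9. Of the gamma members with a C-type symbol, Pcdhgc5 had 944 codons and Pcdhgc3 had 934, next to 935 in Pcdhga7.

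**Figure D2:**
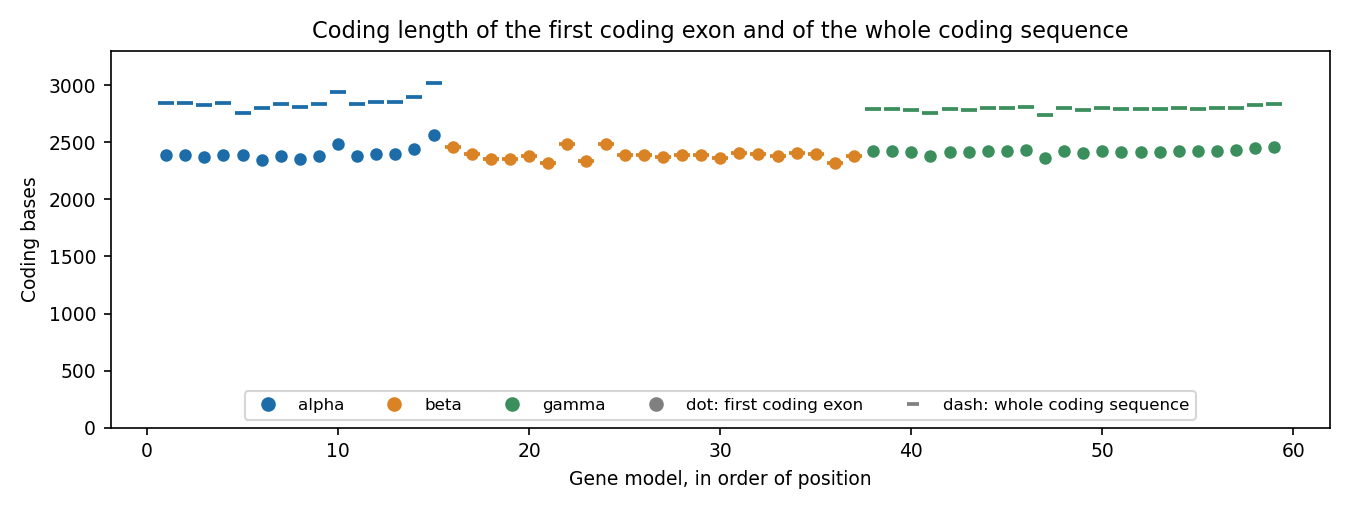
Coding bases of the first coding exon (dots) and of the whole coding sequence (dashes) for the 59 models in order of position. The dots lie between 2316 and 2562 bases in all 3 clusters, and dot and dash coincide in the 22 beta models only.

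The alpha constant region consisted of coding exons of 59 bases (chr18:37156155-37156213), 89 bases (chr18:37159265-37159353) and 308 bases (chr18:37184946-37185253). The same exons, with identical start and end, were used by 14 of the 15 alpha members and added 152 codons to each reading frame. A shorter ending, in which the last of these exons stopped after 102 bases and an exon of 68 bases followed, gave 106 codons. It was annotated in 5 members, Pcdha1, Pcdha2, Pcdha4, Pcdha6 and the more 3′ of a pair of models named Pcdha11.

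The gamma constant region had the same layout, with coding exons of 59 bases (chr18:37825021-37825079), 89 bases (chr18:37833265-37833353) and 224 bases (chr18:37839903-37840126). All 22 gamma members used these exons, which added 124 codons. The leading pair of constant exons therefore had equal lengths, 59 and then 89 bases, in alpha and in gamma. That pair of lengths in neighbouring internal exons occurred in 38 of 15557 protein-coding genes with at least 4 coding exons, and 36 of the 38 were members. The others were Ipcef1 and Otof. The 36 members are not separate occurrences, since all members that use the same constant region have the same exon pair. Counted by position, the pair lay in the alpha and gamma constant regions, in Ipcef1 and in Otof. No beta member shared a coding exon with another beta member.

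Coding exons common to many genes were otherwise rare in the annotation. Of 231782 distinct Ensembl coding exons, 1056 (0.456%) belonged to at least 2 genes. Only 6 belonged to at least 10 genes, and all 6 were constant exons of the alpha and gamma clusters, used by 14 to 25 Ensembl genes each. The largest number outside these clusters was 9 genes, for 4 exons of the Ugt1a locus, where glucuronosyltransferase genes also join variable first exons to common ones.

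All 37 alpha and gamma members had 4 coding exons in the transcript with the longest CDS, and all 22 beta members had 1. A lone coding exon was found in 16.7% of protein-coding genes. In 37 of 37 alpha and gamma members the variable exon ended on a codon boundary, so each variable exon entered the constant exons in the same frame. Among protein-coding genes with several coding exons, 40.6% had a first coding exon made of whole codons. The share was also high among relatives, at 9 of the 11 non-clustered protocadherins counted (81.8%) and 34 of 41 other cadherins (82.9%). The variable exon accounted for a median of 84.0% of the reading frame in alpha and 86.7% in gamma.

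Introns between a variable exon and its constant exons were long and shortened along each cluster, as follows from their common end point. Among alpha members that used the alpha constant exons, the intron ran from 223482 bases in Pcdha1 to 63583 in Pcdhac1 and 9624 in Pcdhac2. In gamma it ran from 160655 bases in Pcdhga1 to 16043 in Pcdhgc3 and 2886 in Pcdhgc5. Of the 37 members with such an intron, 23 (62.2%) had one over 100000 bases, 13 in alpha and 10 in gamma. Among 255364 distinct Ensembl introns, 0.727% were that long and the median was 1427 bases. That background counts introns at any position in a gene, whereas each member was counted only by the intron after its variable exon.

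**Figure D3:**
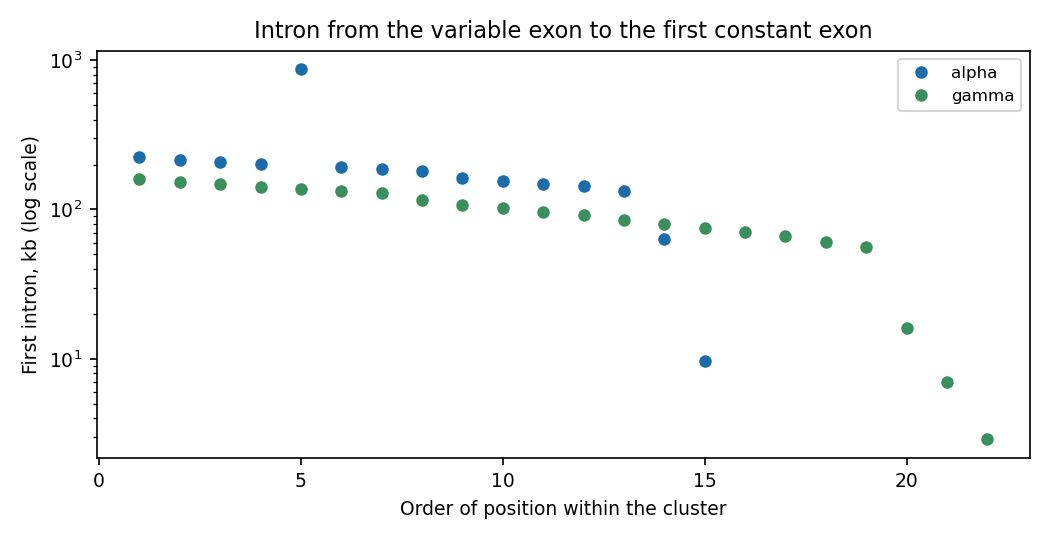
Length of the intron from the variable exon to the first constant exon (kb, log scale) against order of position within the alpha (blue) and gamma (green) cluster. Lengths fall along both clusters to 9624 bases in Pcdhac2 and 2886 in Pcdhgc5, and the alpha point near the top is the Pcdha4 model that reaches the gamma constant exons.

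Neighbouring members of a cluster began a median of 6889.5 bases apart. The median spacing was smallest in gamma, at 5337 bases, with a lowest value of 3779 before Pcdhga12. The lowest value of any cluster was 93 bases, between the 2 alpha models named Pcdha4, which have the same variable exon. The widest intervals in alpha and gamma lay before Pcdhac1, Pcdhac2 and Pcdhgc3. Pcdhac1 began 69864 bases after Pcdha12, Pcdhac2 53490 bases after Pcdhac1, and Pcdhgc3 40784 bases after Pcdhga12. The C-type gene Pcdhgc5, by contrast, began 4434 bases after its neighbour, below the gamma median. That neighbour carries the symbol Pcdhga8, but the gene name table calls it Pcdhgc4, a C-type gene. It began 8715 bases after Pcdhgc3. In beta, where the median spacing was 7781 bases, the widest intervals preceded Pcdhb9 (45734 bases) and Pcdhb2 (29874 bases). Measured instead from the end of a model to the start of the next, Pcdhb17 and Pcdhb18 were separated by 10 bases. The exons of Pcdhb21 and Pcdhb22 overlapped by 455 bases.

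Untranslated regions followed the constant exons. The 3′ untranslated region was 2401 bases in 14 alpha members, and 1744 or 1741 bases in 17 and 5 gamma members. Beta members each had their own, from 71 bases in Pcdhb1 to 6117 in Pcdhb14, with a median of 1213.5 bases and more than 2000 bases in 6 of 22. The 5′ untranslated region was short in all clusters, with medians of 106 bases in alpha, 176 in beta and 181.5 in gamma. The longest were 610 bases in Pcdhb22, 537 in Pcdhga12 and 466 in Pcdhac2. It was absent from the models of Pcdha1, Pcdha5, Pcdha9 and Pcdhb8 in the transcript with the longest CDS.

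Because of the constant exons, much of an alpha or gamma model was not its own. Exon bases were counted as shared where an exon of another gene model lay over them on the same strand. The constant exons contributed 2860 shared bases to an alpha model and 2119 to a gamma model. More than 50% of exon bases were shared in 16 members (27.1%), 13 in alpha, 3 in gamma and none in beta. That limit lay between the median shares of alpha (53.6%) and gamma (44.8%), so the counts differ more than the shares do. The background over protein-coding genes was 7.45%. With Ensembl models alone 15 members passed 50%, where the background was 1.51%. Counting coding bases alone, 6 members did, and no background over protein-coding genes is given for that count. In it, coding bases were compared only with the coding bases of other models, not with their non-coding exons.

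Apart from those 6, the portion of coding bases shared with another model's coding bases was 15.1% to 18% in alpha and 13.1% to 13.6% in gamma. That is the portion that lies in constant exons. The exceptions were the members whose variable exon was annotated more than once. Pcdha6, Pcdha7 and the Pcdha4 model ENSMUSG00000103458 had no private exon base. The other Pcdha4 model, ENSMUSG00000104252, had 494 private bases and the more 5′ Pcdha11 model, ENSMUSG00000007440, had 117. Pcdhb14, with its long 3′ untranslated region, had the most private bases, 8695.

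In gamma, 2 models reached more than 50% through a neighbour. A transcript of Pcdhgb1 without a CDS spliced from its own large exon into that of Pcdhga4, the next gene downstream, and covered 1038 exon bases of it, 848 of them coding. Shared exon bases were 54.6% in Pcdhgb1 and 66.8% in Pcdhga4. Coding bases covered only by a transcript without a CDS do not enter the count of coding bases above. A similar transcript joined Pcdhgb4 to 108 bases of Pcdhga8. In beta the sharing was limited to the overlap of Pcdhb21 (9.67% of its bases) and Pcdhb22 (6.88%).

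**Figure D4:**
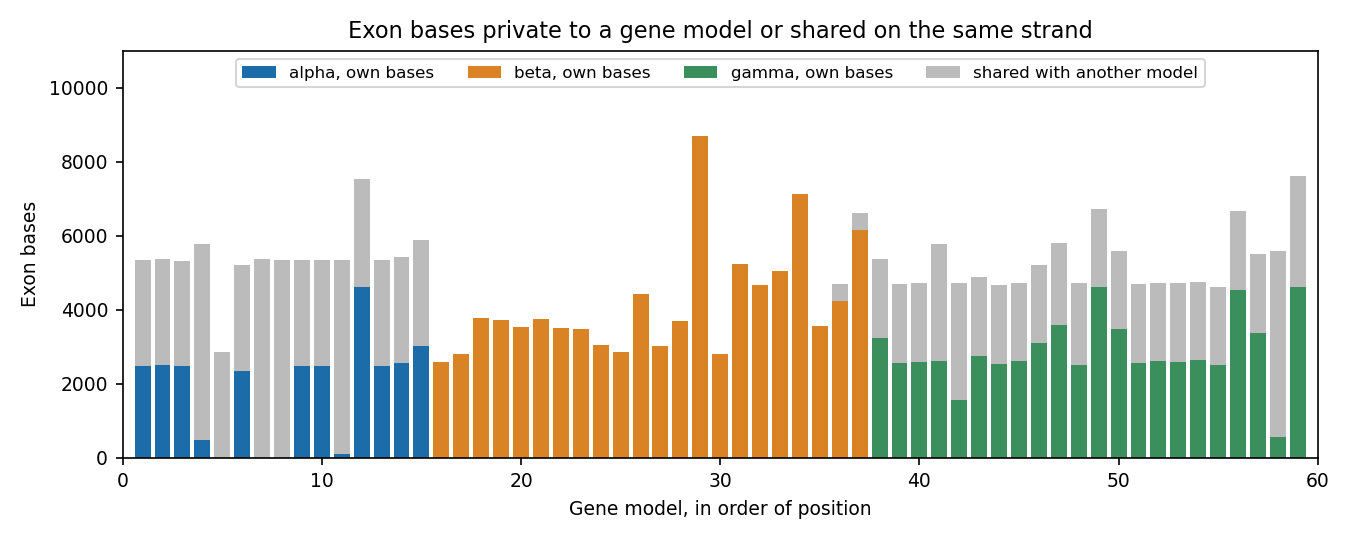
Exon bases of each of the 59 models in order of position, split into bases of its own (coloured) and bases shared with another model on the same strand (grey), stacked from 0. Grey makes up more than 50% in 13 alpha and 3 gamma bars, and is absent from 20 of the 22 beta bars.

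Beyond the standard form, the alpha and gamma clusters were joined in 5 gene models. Each took a variable exon of the alpha cluster and spliced it over the whole beta cluster to the gamma constant exons. The only member among them was the Pcdha4 model ENSMUSG00000103458 (chr18:36952741-37840200), with a span of 887460 bases that contained all 22 beta members. Its intron of 869870 bases ranked 8 by length among all 255364 Ensembl introns. Its reading frame began at the same start codon as that of the other Pcdha4 model and had 919 codons, against 947 with the alpha constant exons.

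The remaining 4 joined models used the variable exons of Pcdha6 and Pcdha7. Gm37013 and Gm37388 were partial Ensembl models of 104 and 143 codons without a start or stop codon, and their introns ranked 9 and 10. Gm38666 and Pcdha7-g, added to the annotation from a source other than Ensembl, were complete at 927 and 918 codons. Their start codons lay 27 bases, or 9 codons, upstream of those given for Pcdha6 and Pcdha7. The joined models thus involved 3 alpha variable exons.

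Several symbols did not identify a single gene. Pcdha4, Pcdha11 and Pcdhga8 were each carried by 2 members, whereas Pcdha10 and Pcdhgc4, which the RefSeq gene table lists, were the symbol of no Ensembl model. The model ENSMUSG00000007440, named Pcdha11, had the same first coding exon as the added RefSeq model Pcdha10. The model ENSMUSG00000023036, named Pcdhga8, lay at chr18:37815079-37841873 between Pcdhgc3 and Pcdhgc5 and had the first coding exon of the added RefSeq model Pcdhgc4. The gene name table, which had 57 of the 59 symbols unchanged, calls it Pcdhgc4, a C-type gene, and calls the long-span Pcdha4 model Gm42416. Its 941 codons and intron of 7037 bases lay between the values of Pcdhgc3 and Pcdhgc5. The added copies left ENSMUSG00000023036 with 572 private exon bases, or 89.8% shared. Counting distinct variable exons in place of identifiers gave 58, because only the Pcdha4 pair shared one.

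The 59 members had 89 transcripts, 25 in alpha, 26 in beta and 38 in gamma. A lone transcript was given for 38 members, and the most were 5, for the Pcdha11 model ENSMUSG00000102206, followed by 4 for Pcdhgc5. Besides the transcript with the longest CDS of each member there were 30, of which 12 had no CDS. In 11 alpha and gamma transcripts among these 30, the exon ran on past the splice donor of the variable exon, by 221 bases in Pcdhgb2 to 2945 in Pcdhgc5. A transcript of Pcdhb22 ran 283 bases past the end of the coding bases, where the standard beta form has no splice donor. This is no comparable case, since the main Pcdhb22 transcript has a 3′ untranslated region of 3614 bases there. Most of the 11 were labelled retained intron, a class with 3 alpha and 7 gamma transcripts. In Pcdhga1 and Pcdhga7 the unspliced form was instead given as coding, with 810 and 813 codons and no constant exon. Transcripts of the class nonsense-mediated decay, the pathway that removes messages with an early stop codon, were given for Pcdha6 and Pcdhgc3 only.

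Between the outermost members lay 31 other genes, 26 from Ensembl and 5 added. Only 4 of the Ensembl genes were protein-coding. These were the joined models Gm37013 and Gm37388, and Slc25a2 (265 codons) and Taf7 (341 codons), which both lay on the minus strand between the beta and gamma clusters with 1 coding exon each. Slc25a2 is a mitochondrial ornithine carrier and Taf7 a subunit of the transcription factor TFIID. Pseudogenes numbered 6. Of the non-members on the plus strand, 9 shared exon bases with a member, among them Gm38182, a non-coding model over the gamma constant exons, and the pseudogene Gm18150.

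Minus-strand genes numbered 15, and 9 of them had an exon opposite a member's exon. The members so covered were 14 of 59 (23.7%), 5 in alpha, 1 in beta and 8 in gamma, which is near the 19.7% found over protein-coding genes. The covered length ranged from 303 to 3338 bases. Exons of 8 minus-strand genes lay opposite a variable coding exon and those of 6 opposite a start codon. Gm26672 lay opposite Pcdhga10, Pcdhgb7, Pcdhga11 and Pcdhga12, and in Pcdhga10 it covered all 2418 coding bases of the variable exon. Gm10545 reached across the start codons of Pcdha11 and Pcdha12, Gm37446 covered that of Pcdhb12 and BC037039 that of Pcdhgc3. No source used here says whether reads were assigned to genes with regard to strand.

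The large exon was shared with relatives outside the clusters, but the constant exons were not. The 12 non-clustered protocadherins compared here are scattered over several chromosomes. Of these 12, 11 (91.7%) had a longest coding exon of at least 2000 bases, and the median over the 12 was 2592. The exception was Pcdh15, a component of the hair-cell tip link, with 34 coding exons and a longest of 1441 bases. Of 41 other cadherins, 9 (22%) passed that length, namely Celsr1 to Celsr3, Fat1 to Fat4, Dchs1 and Dchs2. The classical cadherins Cdh1 and Cdh2 spread their reading frames over 16 coding exons, whose longest had 245 and 254 bases. No gene of either list had more than 50% of its exon bases shared. Of 10 genes known to act on the clusters, including the insulator protein Ctcf, the cohesin subunit Rad21, the methyltransferase Dnmt3b and the chromatin protein Smchd1, none lay on chromosome 18 and none reached 2000 bases in a coding exon.

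**Figure D5:**
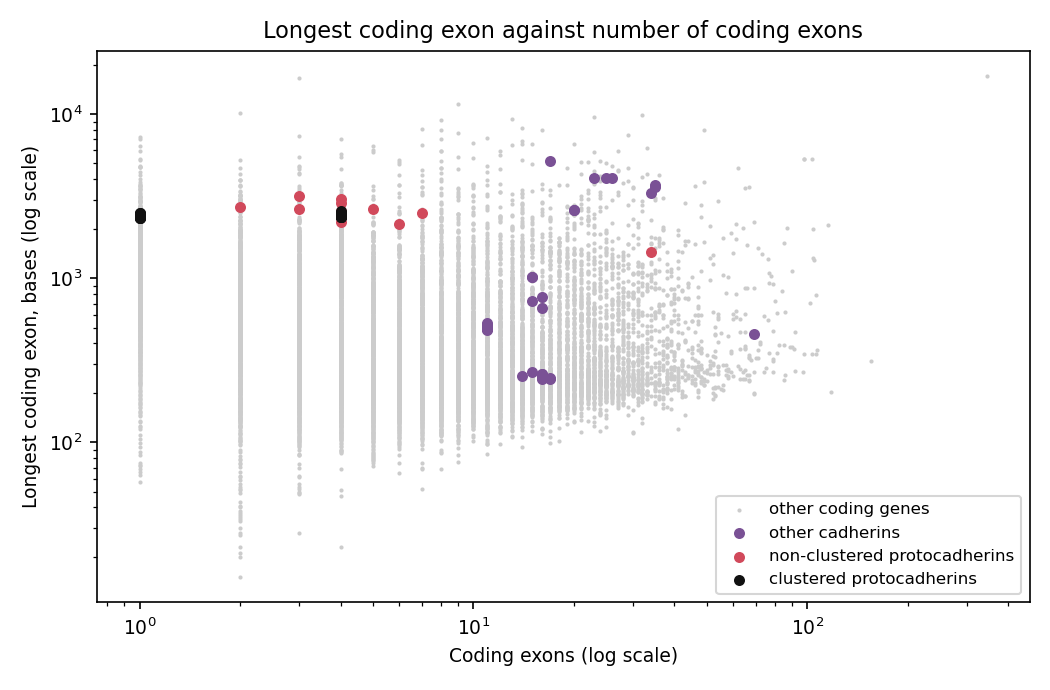
Longest coding exon (bases, log scale) against number of coding exons (log scale) for Ensembl genes with a coding sequence. The 59 clustered protocadherins (black) sit at 1 or 4 coding exons and 2316 to 2562 bases, close to 11 of the 12 non-clustered protocadherins (red), while most other cadherins (purple) have 11 or more shorter exons.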

How the data were processed

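The deposited file is a gene annotation (GTF) with 1544831 lines that place 115521 transcripts. Its numbers are start and end positions, counted from 1, and 0 columns give values per sample. Per the submitters' processing notes, the build was mm10 and the aligner TopHat2 version 2.1.1. No source used here says how the authors assembled the annotation.

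Gene models were read with Python 3.11.15, numpy 2.4.6 and scipy 1.17.1, and drawn with matplotlib 3.10.9. Ensembl models are lines of source ensembl, havana, ensembl_havana, insdc or mirbase, and models of source RefSeq or unknown are called added. The CDS, without the stop codon in Ensembl models, was taken from the transcript with the longest CDS, and exon bases from all transcripts of a gene. Wilson intervals have 95% confidence. Genes are not replicates, so no test was made. The functions were tested on simulated data with known answers. Named members were the outermost of each cluster, the C-type genes and the highest and lowest of each measure. Further genes were named with their values in view. The members and gene lists were chosen with earlier results of these data known. Symbols came from the annotation, and RefSeq names from a table of assembly GRCm38.p6. Comparisons of libraries, promoters and proteins were not analysed here.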

Additional observations from a re-analysis of the deposited data

How the results depend on the processing

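No paired analysis was possible because the annotation holds no measurement of any library, and for the same reason no library was left out. Of 14 alternatives, 13 stayed within the limits set for them, and 1 did not: members with over 50% of their exon bases shared fell from 16 to 6 when coding bases alone were compared. Their number was 15 with Ensembl models alone and 15 with only the transcript of the longest CDS. Members were 63 with the added models and 58 by distinct variable exons, an alternative chosen after seeing the data. The 100% of members with a long exon held at limits of 1500 and 2200 bases. Members with 1 coding exon were 20, and with 4 were 32, by the transcript with most coding exons. The median spacing was 6828.5 bases between start codons. All values are properties of gene models, so depth sets no limit on them.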
